A study of Mus musculus with 4 samples.

Results

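The genes described here are 40 cell cycle transcripts, 20 that mark S phase and 20 that mark G2 and mitosis (G2/M), of 27998 genes in the count tables. They were taken by symbol from lists in common use for scoring the cell cycle in single cells, and all 40 were present in all 4 libraries. Mouse bone marrow cells were sorted by flow cytometry and profiled with droplet single-cell RNA sequencing, which counts each captured transcript by its unique molecular identifier (UMI). One sort took Lineage- CD31+ VECadherin+ Endomucin+ Sca+ cells, named H vessel cells in the labels and called the type H gate here, and the other took the matching Sca- cells, named sinusoidal and called the sinusoidal gate. Each gate gave 1 library from mice labelled ID1 -/- ID3-/- and 1 from mice labelled ID1 +/+ ID3+/-. All groups carried CDH5-CreER, a recombinase under an endothelial promoter that tamoxifen switches on to delete ID1, and the mice received tamoxifen into the peritoneum on 5 consecutive days. The control mice therefore also carried the Cre and lacked 1 ID3 allele. How many mice gave each library is not stated in the labels.

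A dividing blood progenitor copies its DNA in S phase and separates the copies in mitosis. S phase genes code for the helicase and loading factors that open replication origins, for the enzymes that supply nucleotides and for proteins at the fork, and their transcription is driven mainly by E2F factors. G2/M genes code for the mitotic cyclins and their kinase, the spindle and kinetochore, and the machinery that degrades cyclins at anaphase, and many of them share CCAAT boxes bound by NF-Y and a cell cycle homology region (CHR) bound by the DREAM and B-MYB complexes. In bone marrow the most primitive stem cells divide rarely, while multipotent, granulocyte and monocyte progenitors divide often and their mature progeny leave the cycle.

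Stretches just before the start sites are printed for members that recur in the results and, for the S phase list, for the members that hold E2F-type letters there. RefSeq promoter windows (GRCm38.p6, 250 bases before to 50 after the start) matched 34 of the 40 members, 17 of each list, and Aurkb, Gins2, Ccna2, Tpx2, Tipin and Mcm4 were not matched. Both strands were searched for E2F-type letters (TTTGGCGC, TTTCCCGC, TTTCGCGC or TTTGCCGC), for CHR-type letters (TTTGAA or TTTAAA) and for CCAAT, and motifs whose end letters overlapped were each counted. Over the whole windows, which also hold bases after the start, CHR-type letters stood in 15 of the 17 G2/M windows (88.2%), in 25% of the 20 windows of S phase members and in 27.6% of all 32851 windows. CHR-type letters together with CCAAT stood in 82.4% of G2/M windows, 20% of S phase windows and 10.7% of all windows. E2F-type letters stood in 40% of S phase windows, 5.88% of G2/M windows and 2.26% of all windows. In the 100 bases before the start alone, 9 of 17 matched G2/M members held CHR-type letters and 14 CCAAT, and 2 of 17 matched S phase members held E2F-type letters. In these 100 bases, printed 5′ to 3′ on the gene's strand, capitals mark CHR-type and CCAAT letters on either strand for G2/M members and E2F-type letters for S phase members. They are shown for Cdk1 (chr10:69352913-69353012, minus strand), Ccnb1 (chr13:100786487-100786586, minus), Top2a (chr11:99024190-99024289, minus), Plk1 (chr7:122159335-122159434, plus) and Kif23 (chr9:61946800-61946899, minus) of the G2/M list. Mcm6 (chr1:128359706-128359805, minus) and Hells (chr19:38930890-38930989, plus) are those 2 S phase members, and they are not typical of their list.
Cdk1: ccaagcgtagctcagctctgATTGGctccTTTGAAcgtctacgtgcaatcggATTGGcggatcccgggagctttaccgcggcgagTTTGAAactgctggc
Ccnb1: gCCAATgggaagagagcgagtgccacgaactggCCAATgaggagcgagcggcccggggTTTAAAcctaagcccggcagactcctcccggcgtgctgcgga
Top2a: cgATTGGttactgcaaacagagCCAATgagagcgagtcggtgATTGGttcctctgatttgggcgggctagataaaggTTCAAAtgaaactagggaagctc
Plk1: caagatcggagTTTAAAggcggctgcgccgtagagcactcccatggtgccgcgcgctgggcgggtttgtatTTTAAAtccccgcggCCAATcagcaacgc
Kif23: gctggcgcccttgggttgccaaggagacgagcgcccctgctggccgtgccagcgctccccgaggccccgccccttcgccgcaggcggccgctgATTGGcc
Mcm6: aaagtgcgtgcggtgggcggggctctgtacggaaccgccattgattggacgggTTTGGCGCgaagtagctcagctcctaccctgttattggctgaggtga
Hells: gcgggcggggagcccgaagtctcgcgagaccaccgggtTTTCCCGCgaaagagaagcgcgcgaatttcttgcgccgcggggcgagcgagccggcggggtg
In Ccnb1 the CHR-type letters began 42 bases before the start and the CCAAT boxes 67 and 99 bases before it. In Top2a the CHR-type letters began 23 bases before the start, behind 3 CCAAT boxes. Kif23 held 1 CCAAT box and no CHR-type letters in this stretch. A match is a description of the letters and was not tied to binding in these cells.

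The libraries held 3567 kept cells of 3641 barcodes, with 806 and 351 cells in the type H and sinusoidal control libraries and 1857 and 553 in those labelled knockout. Median UMIs per cell were 6420 and 5597 in the type H gate, and 6142 in the sinusoidal control against 15428 in the sinusoidal library labelled knockout. Id3 went against the labels: it stood at 33.0 and 84.9 CPM (UMIs per 1000000) in the type H control and labelled-knockout libraries and at 54.7 and 84.8 CPM in the sinusoidal ones. Id1 stood at 4.08 and 2.99 CPM and at 26.1 and 26.3 CPM. Whether the null alleles still give 3′ transcript tags is not stated in the labels, so the libraries are called control and labelled knockout throughout. The 6 endothelial markers, Cdh5 among them, summed to at most 6.38 CPM in any library, and the cells carried blood cell transcripts instead. Libraries shared at most 2 barcodes. With 1 library per gate and label there is no test between groups, and all intervals are exact 95% intervals that cover counting error only, not differences between mice.

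Cells were compared at one depth. Each of the 3463 cells with at least 2000 UMIs was thinned at random to 2000 UMIs, which left out 16 and 88 shallower cells of the type H control and labelled-knockout libraries and none of the sinusoidal gate. A cell was then counted as past the minimum, a working sign of cycling, with at least 3 UMIs summed over the 20 S phase genes or at least 2 UMIs over the 20 G2/M genes. Past this minimum were 16.1% of type H control cells (interval 13.6% to 18.8%), 15.5% of type H labelled-knockout cells (13.8% to 17.3%), 36.2% of sinusoidal control cells (31.1% to 41.5%) and 79.7% of sinusoidal labelled-knockout cells (76.2% to 83.0%). The 2 type H libraries were alike, and the sinusoidal libraries lay above them and far from each other. Without thinning the shares were 55.3%, 46.1%, 55.8% and 91.1%. The minimum cuts a continuous range: 52, 90, 15 and 35 cells of these libraries, in the same order, stood exactly at 1 of the 2 minimums and below the other. With 1 UMI fewer in both minimums, 177, 448, 69 and 44 cells would come in. Cells past the minimum were the larger cells before thinning, with a median of 9697 against 6289 UMIs in the type H control and 16438 against 6842.5 in the sinusoidal library labelled knockout, so the unthinned shares also read depth.

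The 2 lists were spread over cells in different ways. In the type H control, cells with at least 2 G2/M UMIs were 7.97% of cells and held 86.2% of all G2/M UMIs, at a mean of 10.0 UMIs each against 0.139 in the other cells. Cells with at least 3 S phase UMIs were 11.4% of cells and held 48.0% of S phase UMIs, at a mean of 5.04 against 0.703. In this library the G2/M transcripts lay mostly in few cells, whereas more of the S phase transcripts lay in cells below the S phase minimum. Dut, which removes dUTP from the nucleotide pool, Slbp, which binds histone mRNA, Tipin, a fork protection factor, and Fen1, which trims Okazaki fragments, stood at 29.1, 44.3, 29.1 and 34.2 CPM in control cells rich in Jchain, a plasma cell transcript, where Mcm4, Mcm5 and Gins2 had 1 UMI each.

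Cells were grouped by marker transcripts that are not among the members. Jchain marks plasma cells, Ngp and Camp later granulocyte precursors and Elane early granulocyte precursors. F13a1 marks monocyte progenitors and some monocytes, Lyz2 monocytes, Procr stem cells and Flt3 multipotent progenitors primed for lymphoid fates. The minimums, per 2000 UMIs and applied in this order, were 20 for Jchain, 10 for Ngp plus Camp, 10 for Elane, 2 for F13a1, 10 for Lyz2, 2 for Pf4 (megakaryocyte cells) and 1 for Procr or Flt3 alone. The type H gate held Procr (162 control and 334 labelled-knockout cells), Flt3 (57 and 123) and Jchain cells (106 and 168), and 441 and 1088 cells that met no minimum. The sinusoidal gate held Elane (59 and 240), F13a1 (81 and 93), Lyz2 (88 and 40) and Ngp/Camp cells (27 and 54), with 83 and 110 that met none. The F13a1 group was mixed: 68 of 81 control and 35 of 93 labelled-knockout cells had at least 60 Lyz2 UMIs per 2000. Groups under 50 cells are given as values only, and Pf4 cells were 5 to 11 per library and are not described further. Plasma cells mostly do not divide, so the Jchain group served as a rough gauge of stray transcripts. In the library labelled knockout, however, 6 of 168 Jchain cells held 54.8% of the group's G2/M UMIs, at a mean of 6.67 each. Whether these cells were dividing was not tested, so the gauge there cannot be read as stray transcripts alone.

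**Figure D1:**
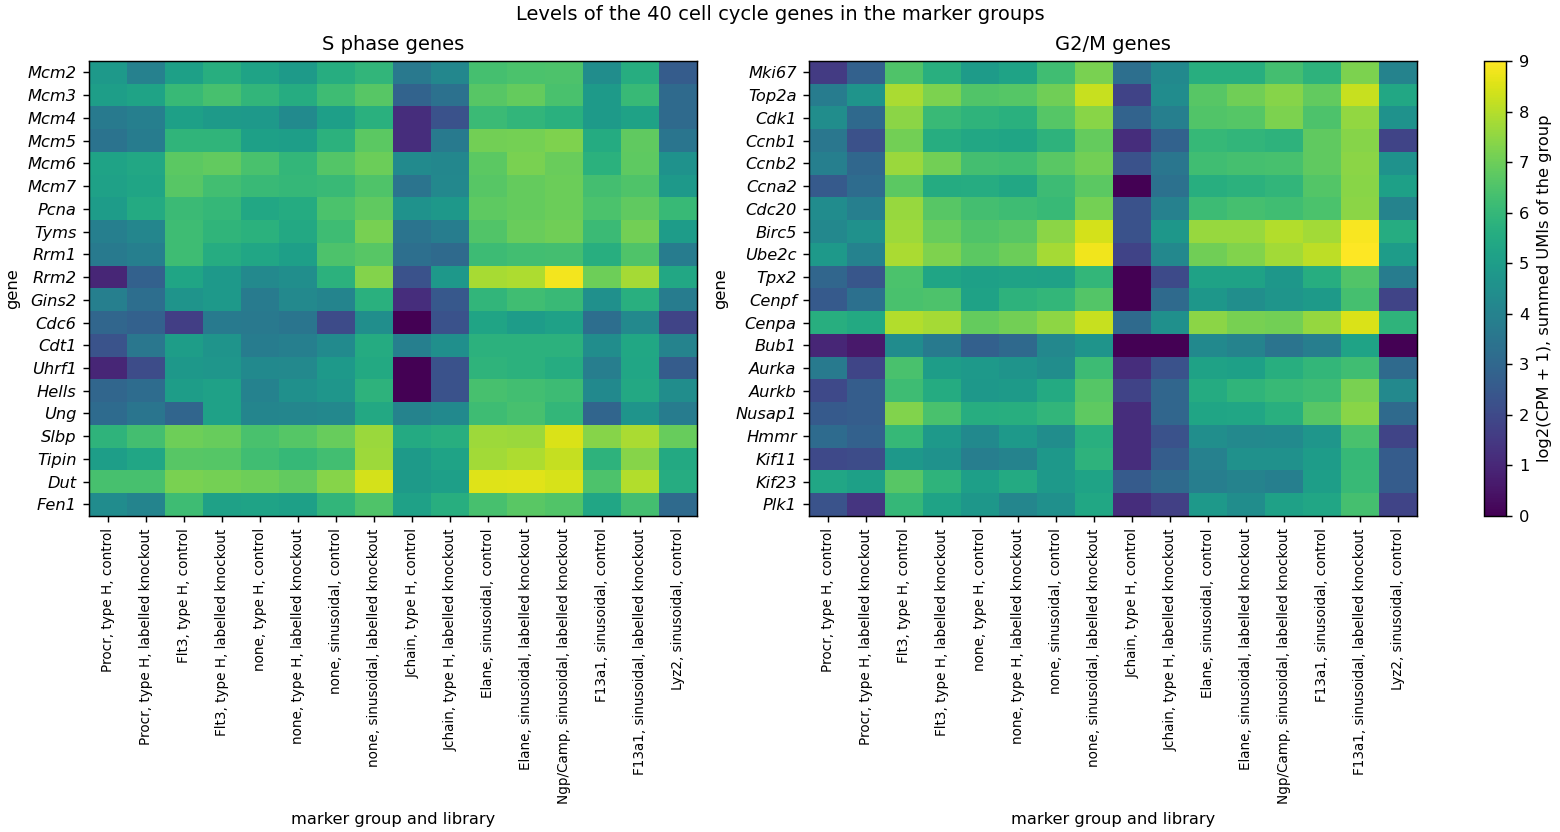
Heat map of log2(CPM + 1) of the 20 S phase genes (left) and the 20 G2/M genes (right), rows, in each marker group and library with at least 50 cells, columns. S phase rows are brightest in the Elane and Ngp/Camp columns and G2/M rows in the F13a1 column of the library labelled knockout and in the Flt3 columns, with the Procr, Jchain and Lyz2 columns dark in both.

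Among groups of at least 50 cells, S phase members peaked in granulocyte precursors and G2/M members in F13a1 cells or multipotent progenitors. Over the 12 combinations of named marker group and library with at least 50 cells, 10 S phase members were highest in an Elane group and 8 in the Ngp/Camp group of the library labelled knockout, while Tyms and Rrm1 were highest in its F13a1 group. Of the G2/M members, 15 were highest in that F13a1 group and 5, Ccnb2, Cdc20, Aurka, Kif23 and Cenpf, in a Flt3 group. The lowest level fell in a Jchain group for 15 S phase and 19 G2/M members. The labelled-knockout Lyz2 group, with 40 cells, was not among the 12. Its G2/M sum was 4197 CPM, above the 3539 CPM of the labelled-knockout F13a1 group. These are levels of summed UMIs, and fewer cycling cells cannot be told apart from fewer transcripts per cycling cell in them. The heat map of the 40 genes shows both peaks.

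Among the origin factors, the MCM helicase subunit Mcm5 followed the S phase sum. That sum was highest in labelled-knockout Ngp/Camp cells, at 2852 CPM, whereas Mcm3, Mcm4 and Mcm6 were highest in an Elane group. Mcm5 stood at 9.77 and 12.9 CPM in the Procr groups of the control and labelled-knockout libraries, at 57.7 CPM in both Flt3 groups, at 133 and 136 CPM in the Elane groups and at 152 CPM in the labelled-knockout Ngp/Camp group. In the monocyte groups Mcm5 was at 45.5 CPM (F13a1, control), 110 CPM (F13a1, labelled knockout) and 10.2 CPM (Lyz2, control). Mcm6 had a narrower range, from 36.2 and 41.3 CPM in Procr cells and 107 and 114 CPM in Flt3 cells to 106 and 143 CPM in Elane cells. The loading factors Cdc6 and Cdt1 gave few UMIs, 417 and 734 over all cells, and were at 37.1 and 54.3 CPM in the control Elane group. Cdt1 was as high in the labelled-knockout Ngp/Camp group, at 54.4 CPM.

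The nucleotide enzymes differed in where they peaked. Rrm2, the regulated subunit of ribonucleotide reductase, had 1 UMI in the control Procr group (0.977 CPM) and stood at 5.90 CPM in the labelled-knockout one. It was at 37.7 and 27.6 CPM in Flt3 cells, 223 and 236 CPM in Elane cells, 128 and 221 CPM in F13a1 cells and 455 CPM in the labelled-knockout Ngp/Camp cells. Its partner subunit Rrm1 did not share the Ngp/Camp peak, with 78.0 CPM there against 71.5 and 76.3 CPM in Elane and 89.9 CPM in labelled-knockout F13a1 cells. Dut was at 83.1 CPM in both Procr groups, 144 and 138 CPM in Flt3 cells and 373 and 384 CPM in Elane cells, against 87.6 and 248 CPM in F13a1 cells. Ung, the glycosylase that cuts uracil out of DNA, was the member most tilted to Elane cells, at 72.4 and 82.3 CPM against 6.74 and 24.5 CPM in F13a1 cells.

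Fork and chromatin members peaked in different groups. Pcna, the sliding clamp, had a shallow gradient, at 30.3 and 44.0 CPM in Procr, 68.8 and 62.5 CPM in Flt3, 107 and 115 CPM in Elane and 85.9 and 110 CPM in F13a1 cells, and it was at 66.5 CPM in the control Lyz2 group. Mcm2 by contrast was at 79.6 CPM in control Elane and 5.12 CPM (2 UMIs) in control Lyz2 cells. Hells and Uhrf1, which maintain DNA methylation behind the fork, had no UMI in the control Jchain group and stood at 81.5 and 57.0 CPM in control Elane cells. Slbp and Tipin were highest in the labelled-knockout Ngp/Camp cells, at 361 and 296 CPM.

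G2/M members were lowest in Procr and Jchain cells. Mki67, which coats mitotic chromosomes and is the usual proliferation stain, stood at 1.95 and 5.90 CPM in Procr cells, 91.0 and 50.5 CPM in Flt3 cells, 48.9 and 48.5 CPM in Elane cells and 55.6 and 149 CPM in F13a1 cells. Top2a, the topoisomerase that untangles sister DNA, was at 12.7 and 24.1 CPM in Procr, 231 and 148 CPM in Flt3, 99.6 and 131 CPM in Elane and 113 and 303 CPM in F13a1 cells. Ccnb2, a mitotic cyclin, was at 13.7 and 6.97 CPM in Procr, 197 and 136 CPM in Flt3, 74.2 and 80.6 CPM in Elane and 110 and 170 CPM in F13a1 cells. All 3 were lower in Elane than in F13a1 cells of the library labelled knockout, whereas Dut, Ung and Mcm5 were higher there.

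Spindle and anaphase members were also low in Procr cells, and Ube2c and Birc5, unlike the 3 genes above, were not higher in Flt3 than in F13a1 cells of the control. Ube2c, which feeds the anaphase-promoting complex, was at 27.4 and 15.0 CPM in Procr, 229 and 151 CPM in Flt3, 131 and 157 CPM in Elane and 271 and 501 CPM in F13a1 cells. Birc5 (survivin, of the Aurora B complex) was at 17.6 and 22.5 CPM in Procr, 204 and 119 CPM in Flt3, 194 and 195 CPM in Elane and 216 and 480 CPM in F13a1 cells. Cenpa, the centromeric histone, was at 48.9 and 42.9 CPM in Procr, 246 and 219 CPM in Flt3 and 189 and 356 CPM in F13a1 cells. Kif23, a kinesin of the cytokinetic midzone, departed from the list: it was higher in Procr cells, at 39.1 and 33.8 CPM, than in Elane cells, at 13.6 and 15.4 CPM. Bub1, a checkpoint kinase, gave the fewest UMIs of all members, 302 over all cells, and had none in either Jchain group.

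The balance of the 2 lists differed between the cycling groups. Per 2000 UMIs, Elane cells held a mean of 4.73 and 5.01 S phase UMIs but 2.76 and 2.37 G2/M UMIs in the control and labelled-knockout libraries, a ratio of S phase to G2/M UMIs of 1.71 and 2.11. F13a1 cells held 1.49 and 2.85 S phase and 1.96 and 6.15 G2/M UMIs, a ratio of 0.761 and 0.463. Flt3 cells had ratios of 0.618 and 1.01, and the labelled-knockout Ngp/Camp cells 2.07. The G2/M-positive cells of the Elane groups, 57.6% and 49.2% of cells, held 4.41 and 4.24 G2/M UMIs each, against 9.87 and 10.2 in F13a1 and 12.1 and 8.35 in Flt3 cells, so the Elane groups had many cells with few G2/M UMIs each. Transcripts of 5 granule genes took 4.44% and 4.11% of UMIs in Elane cells and 0.105% and 0.457% in F13a1 cells, and their part in the G2/M level was not tested.

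**Figure D2:**
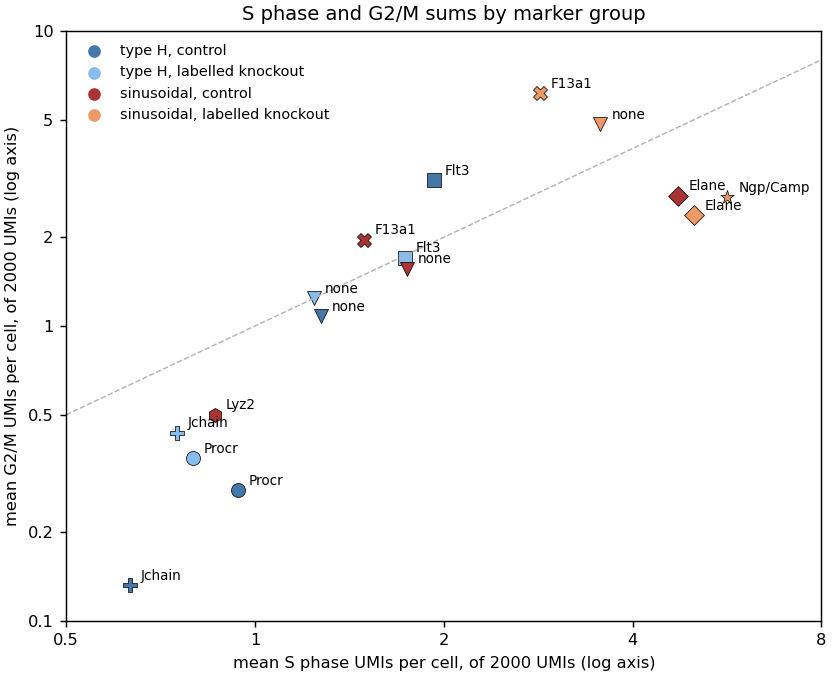
Mean G2/M UMIs per cell against mean S phase UMIs per cell, both of 2000 UMIs and on log axes, for each marker group and library with at least 50 cells, coloured by library, with a dashed line of equal sums. Elane and Ngp/Camp points lie below the line at 4.73 to 5.67 S phase UMIs, F13a1 points above it, and Procr, Jchain and Lyz2 points at the low end.

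Within the type H gate, Flt3 cells stood well above Procr cells. The S phase sum was 2.76 times as high in Flt3 as in Procr cells of the control (interval 2.44 to 3.14) and 2.30 times in the library labelled knockout (2.10 to 2.52). The G2/M sum was 9.69 times (8.48 to 11.1) and 6.87 times as high (6.15 to 7.69). In the control, 14 of 15 measured S phase members and 18 of 18 measured G2/M members were at least 1.5-fold higher, where measured means at least 20 UMIs over both groups, and none was lower, against 15.7% of all 7338 measured genes higher and 12.8% lower. In the library labelled knockout they were 19 of 20 and 19 of 19, with none lower, against 13.3% of all genes higher and 11.7% lower. Members too low to be measured are left out of these counts, and a member can be measured through the Flt3 group alone. Some were measured mainly through it, Aurkb with 3 UMIs in control Procr and 33 in control Flt3 cells. The counts are therefore no support for a difference, and the reading rests on the 2 sums. Mki67 had 2 UMIs in control Procr and 41 in control Flt3 cells (46.5-fold, 12.1 to 397), and Nusap1, which bundles spindle microtubules, had 5 and 70 (31.8-fold, 12.99 to 101). Kif23 had the smallest G2/M ratios, 2.55 in the control and 1.67 in the library labelled knockout.

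**Figure D3:**
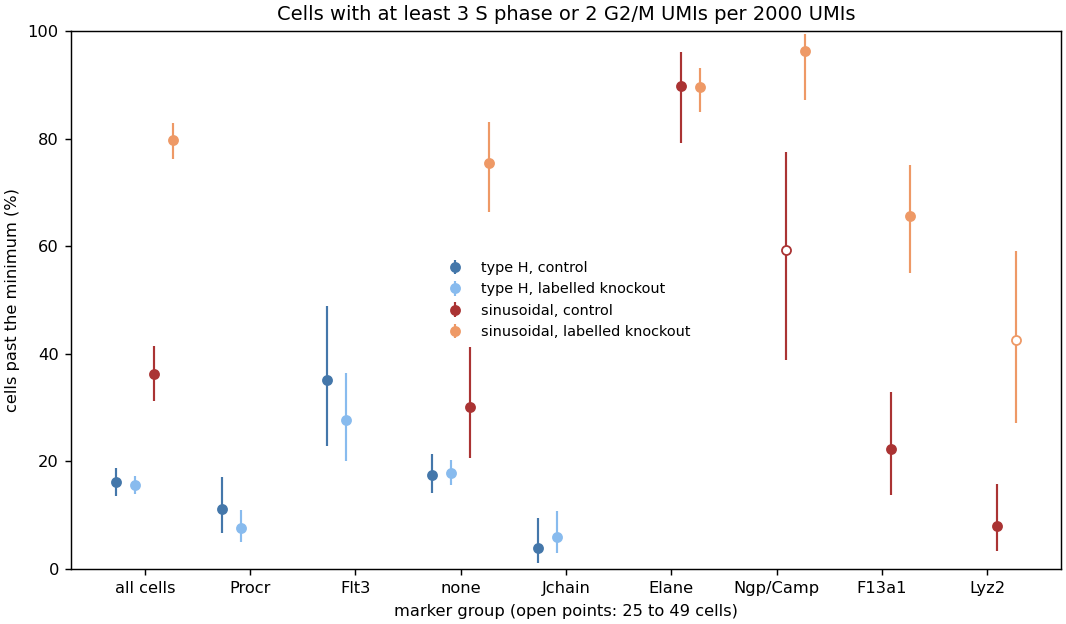
Share of cells with at least 3 S phase or 2 G2/M UMIs per 2000 UMIs, with exact 95% binomial intervals, for all cells and each marker group, coloured by library; open points are groups of 27 and 40 cells. The Elane points of both labels sit near 90%, the Jchain, Procr and control Lyz2 points under 12%, and the labels separate in the F13a1, Lyz2, Ngp/Camp and unmarked groups of the sinusoidal gate.

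Procr cells were further above the gauge in the control than in the library labelled knockout, though this contrast was not tested. In the control library 11.1% of Procr cells (6.72% to 17.0%, median 6126 UMIs) were past it, against 3.77% of Jchain cells (1.04% to 9.38%, median 7137 UMIs), and in the library labelled knockout 7.49% (4.90% to 10.9%, 5566 UMIs) against 5.95% (2.89% to 10.7%, 7472.5 UMIs). The difference from the gauge was 7.34 points in the control (0.215 to 13.8) and 1.53 points in the library labelled knockout (-3.85 to 6.08). Both rest on 1 thinning seed. Most Procr cells past the minimum, 16 of 18 control and 19 of 25 labelled-knockout cells, stood exactly at 1 minimum and below the other. So did 4 of 4 and 5 of 10 Jchain cells past it. With higher minimums the label difference of the Procr share, -3.63 points, was 0.562 points (-2.79 to 2.90). The gauge itself was 2.18 points higher in the library labelled knockout (-4.21 to 7.64), and 1.79 to 7.10 points higher with other seeds, at most 7.10 (2.29 to 12.1). The contrast between the labels therefore also reads the gauge. By S phase UMIs alone, the shares were 9.26% of Procr and 2.83% of Jchain cells in the control, a difference of 6.43 points (-0.136 to 12.4). In the library labelled knockout they were 4.19% and 4.76%, so no share above the gauge is read there. Flt3 cells were past the minimum in 35.1% (22.9% to 48.9%) and 27.6% (19.96% to 36.4%), above the gauge in both libraries. Cells that met no marker minimum, the largest group of this gate, were past it in 17.5% and 17.7%. Without thinning the Procr shares were 52.5% and 43.7%, and those of Jchain cells 35.8% and 42.3%.

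In the sinusoidal gate nearly all Elane cells and few control Lyz2 cells were past the minimum. The 40 labelled-knockout Lyz2 cells were past it in 42.5% (27.0% to 59.1%). Elane cells were past it in 89.8% of the control (79.2% to 96.2%, median 17915 UMIs) and 89.6% of the library labelled knockout (85.0% to 93.1%, 16796.5 UMIs). The labelled-knockout Ngp/Camp cells reached 96.3% (87.3% to 99.5%), and control Lyz2 cells 7.95% (3.26% to 15.7%, 4334 UMIs). The Jchain gauge comes from the type H libraries. The sinusoidal libraries held 2 (control) and 0 (labelled knockout) Jchain cells, so stray transcripts were not gauged here. F13a1 cells were at 22.2% in the control (13.7% to 32.8%, 6017 UMIs) and 65.6% in the library labelled knockout (55.0% to 75.1%, 14229 UMIs). Without thinning the Elane shares were 100% in both libraries and those of F13a1 cells 45.7% and 78.5%.

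Elane cells had the higher S phase and the lower G2/M sums when set against F13a1 cells. Their S phase sum was 2.27 times that of F13a1 cells in the control (2.08 to 2.49) and 1.29 times in the library labelled knockout (1.23 to 1.35), while their G2/M sum was 0.713 (0.658 to 0.773) and 0.375 times (0.360 to 0.390). Of 20 members each, 15 S phase members were at least 1.5-fold higher and 8 G2/M members at least 1.5-fold lower in control Elane cells, against 28.3% and 28.8% of all 6527 measured genes. In the library labelled knockout the counts were 8 higher and 20 lower, against 17.6% and 23.7%. Ung (10.7-fold, 4.04 to 40.4, from 4 UMIs in F13a1 cells) and Cdc6 (4.40-fold, 1.74 to 14.3) led in the control, and Nusap1 was the lowest there at 0.376 (0.247 to 0.567). In the library labelled knockout Hmmr, a spindle assembly factor, was lowest at 0.216 (0.158 to 0.294), followed by Kif23 at 0.232. The other S phase genes, 32 fixed in the same way and not among the members, had 17 of 26 measured higher and none lower in the control. The 48 other G2/M genes had 9 higher and 16 lower of 42 measured, with Cks1b and Cks2, small subunits of cyclin-dependent kinases, at 2.28 and 2.12 times the F13a1 level, so the lower G2/M level did not hold for each gene.

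F13a1 cells stood above Lyz2 cells in the control for both sums, at 1.98 times for S phase (1.68 to 2.33) and 5.08 times for G2/M (4.25 to 6.12). In the control 10 of 13 measured S phase and 17 of 17 measured G2/M members were higher and none lower, against 15.7% and 14.3% of all genes. Most of these members were measured mainly through the F13a1 group, Ccnb1 with 65 and 1 UMIs and Plk1 with 23 and 1. The count is therefore no support for a difference. In the library labelled knockout, with 40 Lyz2 cells, 19 S phase members were higher, and 2 G2/M members were lower and none higher, against 16.5% and 13.8%. Many of these S phase members were also measured mainly through the F13a1 group, Uhrf1 with 48 and 2 UMIs. In the library labelled knockout the S phase sum of F13a1 cells was 1.84 times that of Lyz2 cells (1.65 to 2.05) and the G2/M sum 0.843 times (0.796 to 0.894). Elane cells set against Ngp/Camp cells had 8 S phase members higher and 1 lower and 2 G2/M members higher and 4 lower in the control, where 50.2% of all genes were higher and 11.3% lower. In the library labelled knockout 0 S phase members were higher and 2 lower, and 1 G2/M member was higher and 3 lower, against 34.8% and 10.7%.

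Between the gates, both sums were higher in the sinusoidal cells. The S phase sum was 2.06 times that of the type H gate in the control libraries (1.98 to 2.14) and 3.21 times in those labelled knockout (3.13 to 3.29), and the G2/M sum 1.59 (1.53 to 1.66) and 2.51 times (2.45 to 2.57). In the control libraries 17 S phase and 10 G2/M members of 20 each were at least 1.5-fold higher, and 1 G2/M member was lower, against 15.5% of all 11290 measured genes higher and 41.2% lower. In those labelled knockout 20 and 18 were higher and none lower, against 16.3% and 46.0%. The median gene lay at a log2 ratio of -0.38 in the control and -0.46 in the labelled-knockout libraries, so members at a ratio of 1 stood above most genes. Rrm2 was far out, at 153 against 19.9 CPM in the controls (7.69-fold, 6.25 to 9.54) and 232 against 19.0 CPM in the libraries labelled knockout (12.3-fold, 10.6 to 14.2). Kif23 was lower in the sinusoidal gate, at 20.8 against 35.1 CPM in the controls (0.591, 0.440 to 0.785) and at 0.782 times in the libraries labelled knockout.

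In the type H gate the labels differed little. The S phase sum was 769 CPM (control) and 717 CPM (labelled knockout), a ratio of 0.932 (0.898 to 0.968), and the G2/M sum 850 and 858 CPM, a ratio of 1.01 (0.974 to 1.04). No S phase member was past 1.5-fold in either direction, against 5.97% of all 12243 measured genes higher and 3.24% lower. Of the G2/M members Cenpf, a kinetochore protein, was higher at 27.7 CPM (control) and 42.5 CPM (labelled knockout) (1.53-fold, 1.28 to 1.85). Plk1, the mitotic polo kinase, was lower at 21.1 and 13.2 CPM (0.623, 0.486 to 0.801). The share past the minimum differed by -0.587 percentage points (-3.80 to 2.47).

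Within the groups of this gate, Flt3 cells had a lower G2/M level in the library labelled knockout. Their G2/M sum was 2559 CPM (control) and 1528 CPM (labelled knockout) (0.597, 0.551 to 0.647), with 15 of 19 measured G2/M members at least 1.5-fold lower and none higher, against 10.6% of all 6949 measured genes higher and 12.0% lower. Ccnb1, the main mitotic cyclin, was at 133 and 48.1 CPM (0.361, 0.236 to 0.548) and Cdk1, its kinase, at 171 and 67.3 CPM (0.394, 0.274 to 0.563). The UMIs came from few cells, 14 of 57 control cells and 23 of 123 labelled-knockout cells with at least 2 G2/M UMIs, and that share differed by -5.86 points with an interval from -20.6 to 7.30. The UMI intervals treat UMIs of 1 cell as independent and are too narrow for sums carried by so few cells. The S phase sum of Flt3 cells was 0.946 times the control (0.851 to 1.05). In Procr cells the S phase sum was at 1.13 (1.01 to 1.27) and the G2/M sum at 0.843 (0.721 to 0.986), and Cdk1 was at 20.5 and 7.504 CPM (0.366, 0.172 to 0.754). Over thinned Procr cells both sums went the other way. Mean S phase UMIs were 0.938 (control) and 0.796 (labelled knockout), and mean G2/M UMIs 0.278 and 0.356. The share past the S phase minimum differed by -5.07 points (-10.9 to -0.232) and that past the G2/M minimum by 1.72 points (-2.46 to 5.00). The direction of neither Procr sum held at equal depth. Of the measured Procr members 1 S phase member was at least 1.5-fold higher and 2 lower of 17, and 3 G2/M members higher and 3 lower of 10, against 8.19% of all genes higher and 7.19% lower. In the unmarked cells no S phase member was past 1.5-fold, and 2 G2/M members were higher and 1 lower, near the 6.06% and 4.26% of all genes. The Jchain gauge itself differed between labels, with a G2/M sum of 54.4 CPM (control) and 205 CPM (labelled knockout). There 3 of 12 measured S phase and 7 of 7 measured G2/M members were higher and none lower, against 19.0% and 5.48% of all genes. These members reached 20 UMIs mainly through the library labelled knockout, Top2a with 2 and 26 UMIs, so the count is no support for a difference.

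In the sinusoidal gate the library labelled knockout had the higher level of both lists. The S phase sum was 1582 CPM (control) and 2300 CPM (labelled knockout) (1.45-fold, 1.41 to 1.4999), and the G2/M sum 1352 and 2151 CPM (1.59-fold, 1.54 to 1.64). Of 20 members each, 10 S phase and 12 G2/M members were at least 1.5-fold higher and none lower, against 9.18% of all 10582 measured genes higher and 16.5% lower, and all 40 lay above the median gene. Among origin factors Gins2, a helicase subunit, was at 37.1 and 63.3 CPM (1.71-fold, 1.40 to 2.10) and Mcm5 at 78.0 and 123 CPM (1.58-fold, 1.37 to 1.82). Tipin was at 130 and 218 CPM (1.67-fold, 1.502 to 1.87), whereas Pcna was at 97.8 and 111 CPM (1.13-fold, 0.993 to 1.29) and Mcm4 at 43.1 and 50.9 CPM (1.18-fold, 0.972 to 1.44), both with intervals that held 1. Among G2/M members Top2a was at 111 and 205 CPM (1.85-fold, 1.65 to 2.08), Ube2c at 171 and 303 CPM (1.77-fold, 1.61 to 1.95) and Mki67 at 55.0 and 92.3 CPM (1.68-fold, 1.42 to 1.99).

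**Figure D4:**
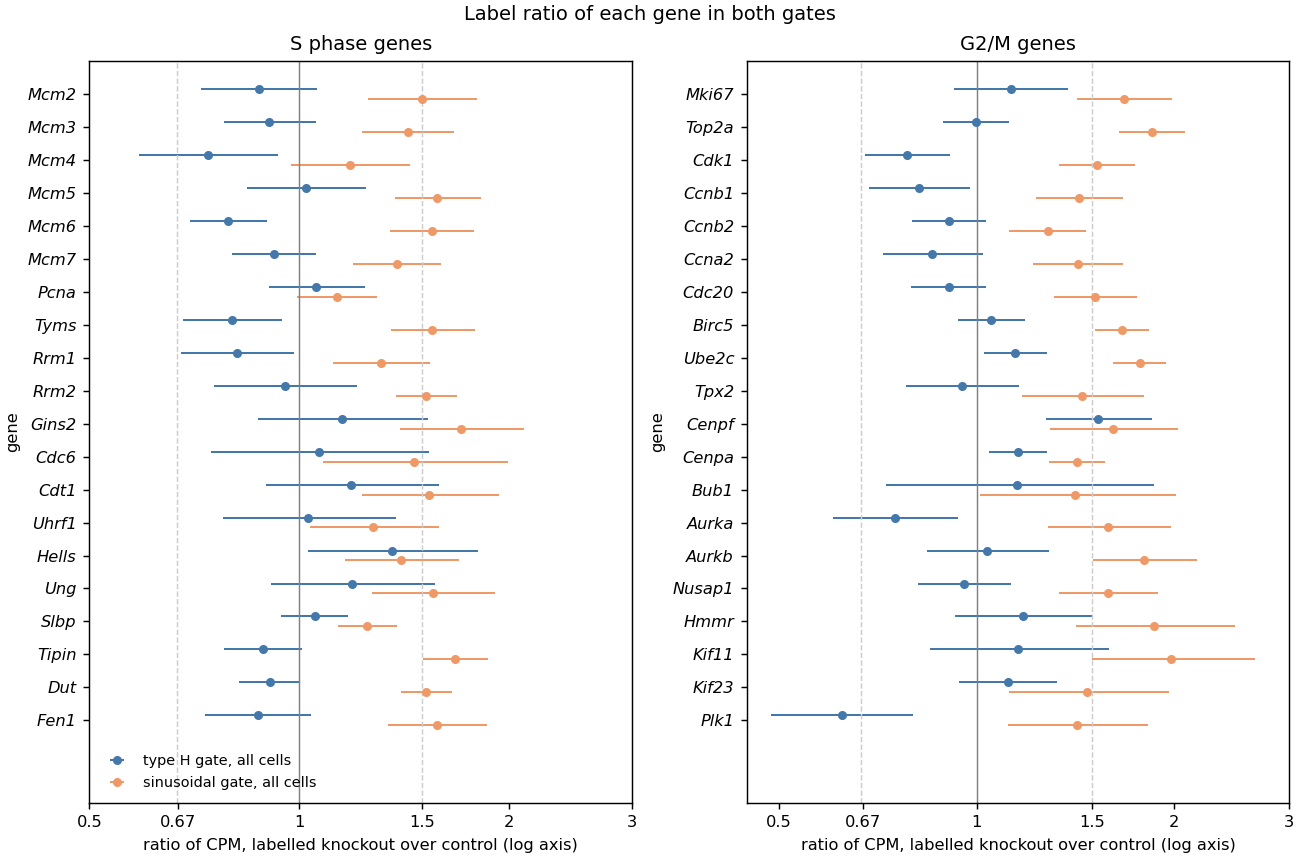
Ratio of CPM, labelled knockout over control (log axis), of each S phase gene (left) and G2/M gene (right) in all cells of the type H gate (blue) and the sinusoidal gate (orange), with exact 95% intervals; dashed lines mark 1.5-fold. All 40 orange points lie above 1, and the blue points scatter around 1 between Plk1 at 0.623 and Cenpf at 1.53.

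The sinusoidal libraries also differed in which cells they held. Elane cells were 16.8% of thinned cells in the control and 43.4% in the library labelled knockout, Lyz2 cells 25.1% and 7.23%, F13a1 cells 23.1% and 16.8% and Ngp/Camp cells 7.69% and 9.76%. When both libraries were given the control's group shares, the S phase ratio of thinned sums was 1.61 and the G2/M ratio 2.74. These ratios include 2 groups under 50 cells, the 27 control Ngp/Camp cells and the 40 labelled-knockout Lyz2 cells. Lyz2 cells held a mean of 0.5 (control) and 4.98 (labelled knockout) G2/M UMIs. Maturity markers still differed by label within groups, so equal shares do not even out all makeup. Summed over thinned cells with each library's own shares, in which large cells weigh no more than small ones, the ratios were 1.97 and 2.25.

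Elane cells, the largest group of the library labelled knockout, showed no label difference of that size. Their S phase sum was 2321 CPM (control) and 2504 CPM (labelled knockout) (1.08-fold, 1.03 to 1.13), and their G2/M sum 1271 and 1326 CPM (1.04-fold, 0.984 to 1.11). No S phase member and 1 G2/M member were at least 1.5-fold higher, and none lower, against 11.1% of all 8797 measured genes higher and 8.72% lower, and the G2/M member was Kif11, a spindle kinesin, at 14.5 and 22.5 CPM with an interval that held 1 (0.911 to 2.84). The share past the minimum differed by -0.247 points (-8.07 to 10.99).

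F13a1 cells differed by label, in a group whose makeup also differed. Their S phase sum was 1021 CPM (control) and 1943 CPM (labelled knockout) (1.90-fold, 1.74 to 2.08) and their G2/M sum 1783 and 3539 CPM (1.98-fold, 1.86 to 2.12). At least 1.5-fold higher were 16 S phase and 19 G2/M members of 20 each, with none lower, against 19.8% of all 6805 measured genes higher and 17.4% lower. Hmmr (25.3 and 83.4 CPM, 3.30-fold, 1.91 to 6.11), Cenpf (2.82-fold, 1.68 to 5.04) and Top2a (113 and 303 CPM, 2.69-fold, 2.07 to 3.54) led the G2/M members. Ung (6.74 and 24.5 CPM, 3.64-fold, 1.28 to 14.2), Tipin (2.94-fold, 2.03 to 4.39), Uhrf1 (2.91-fold, 1.36 to 7.12) and Dut (2.83-fold, 2.10 to 3.87) led the S phase members. The share past the minimum differed by 43.4 points (28.4 to 56.1).

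Some markers of maturity moved with this difference. Of the 7 monocyte markers all were lower in the labelled-knockout F13a1 cells, with a sum of 41559 CPM (control) and 17402 CPM (labelled knockout), and all 5 early granulocyte markers were higher, with sums of 2056 and 6267 CPM. No marker of either list was at 0. Lyz2, the lysozyme that accumulates in monocytes, makes up most of the first sum. All 5 early granulocyte markers were also higher in the unmarked, Lyz2 and Ngp/Camp groups of this library, so this was not particular to F13a1 cells. The part of stray granule transcripts in it was not tested. Of 5 monocyte progenitor markers in F13a1 cells, 2 were higher and 3 lower (6006 and 6648 CPM summed). All 8 later granulocyte markers were lower there (7494 and 4844 CPM). Among F13a1 cells with at least 60 Lyz2 UMIs per 2000, 10 of 68 control cells (14.7%, 7.28% to 25.4%) and 5 of 35 labelled-knockout cells (14.3%, 4.81% to 30.3%) were past the minimum. With fewer than 20 Lyz2 UMIs they were 3 of 3 and 38 of 39 (97.4%), and with 20 to 59 they were 5 of 10 (50%, 18.7% to 81.3%) and 18 of 19 (94.7%, 74.0% to 99.9%). The share was lower at the highest Lyz2 level in both libraries, and in the cells richest in Lyz2 the 2 libraries differed by less than their counting intervals. With F13a1 and Lyz2 cells pooled, the labels differed at the middle level, with 7 of 38 control cells (18.4%, 7.74% to 34.3%) and 27 of 33 labelled-knockout cells (81.8%, 64.5% to 93.0%) past the minimum at 20 to 59 Lyz2 UMIs. At 60 or more they were 13 of 125 (10.4%) and 9 of 57 (15.8%). The Lyz2 levels were set after the data were seen.

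**Figure D5:**
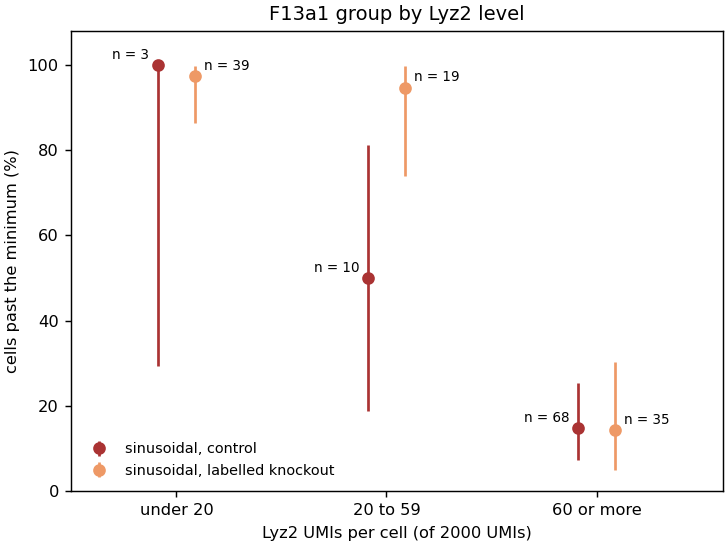
Share of F13a1 cells past the minimum in 3 ranges of Lyz2 UMIs per 2000 UMIs, with exact 95% binomial intervals and the number of cells, for the control and labelled-knockout libraries of the sinusoidal gate. At 60 or more Lyz2 UMIs the points lie at 14.7% and 14.3%, and below 20 at 100% and 97.4%.

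The smaller and unmarked groups went the same way. Cells that met no minimum had an S phase sum of 1203 CPM (control) and 2131 CPM (labelled knockout) (1.77-fold, 1.64 to 1.92), a G2/M sum of 1504 and 2852 CPM (1.90-fold, 1.77 to 2.04) and shares past the minimum of 30.1% and 75.5%. In these cells 14 S phase and 16 G2/M members were higher and none lower, against 25.1% and 12.5% of all genes. Their makeup differed too: the 6 erythroid markers summed to 143697 and 44693 CPM and the 5 basophil and mast cell markers to 8340 and 21345 CPM, and the part of this in the member levels was not tested. Lyz2 cells, 88 and 40, were past the minimum in 7.95% and 42.5% (27.0% to 59.1%), with Ube2c at 30.7 and 675 CPM and Ccnb1 at 1 and 92 UMIs. Of their measured members 9 of 11 and 19 of 19 were higher and none lower, against 19.3% and 19.7% of all genes, but most G2/M members reached 20 UMIs only through the library labelled knockout and the count is no support for a difference. All 7 monocyte markers were lower there (43950 and 29019 CPM summed) and all 5 early granulocyte markers higher (822 and 2818 CPM), and their part in the member levels was not tested. Ngp/Camp cells, 27 and 54, were past it in 59.3% (38.8% to 77.6%) and 96.3%. There 10 of 20 S phase members and 4 of 18 measured G2/M members were higher and none lower, against 31.1% and 9.43% of all genes, so the G2/M count lay near the background. Later granulocyte markers were higher in the control of that group, with Ltf at 5926 CPM against 843 CPM and Lcn2 at 8286 CPM against 1200 CPM.

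Genes of the cycle outside the members were read in classes of cells cut by the members. The 48 other G2/M genes held a mean of 17.1 to 26.9 UMIs per 2000 in cells past the G2/M minimum and 2.44 to 3.75 in cells past neither, over the 4 libraries. The 32 other S phase genes held 2.12 to 3.76 in cells past the S phase minimum alone and 0.754 to 1.16 in cells past neither. Entry regulators did not all follow. Ccnd2, a D-type cyclin, was at 388 and 316 CPM in Procr cells against 166 and 149 CPM in Flt3 cells, and Mycn at 145 and 105 against 42.2 and 28.8 CPM, the reverse of the members. Cdk6, the partner kinase of D-type cyclins, was at 84.1 and 73.4 CPM in Procr, 109 and 186 CPM in Flt3, 329 and 294 CPM in Elane and 84.3 and 144 CPM in F13a1 cells. In the sinusoidal gate 10 of 24 measured entry genes were at least 1.5-fold higher in the library labelled knockout and 3 lower, Mycn, Ccnd1 and E2f2, against 9.18% of all genes higher and 16.5% lower.

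Some cycle inhibitors were lower in the sinusoidal library labelled knockout as a whole. Of 15 measured, 1 was at least 1.5-fold higher and 5 lower, against 9.18% of all genes higher and 16.5% lower, and the others passed neither way, with Btg2, an antiproliferative factor, at 185 and 55.8 CPM (0.302, 0.267 to 0.342) and Btg1 at 471 and 189 CPM (0.402, 0.374 to 0.432). Within Elane cells 3 of 15 measured inhibitors were higher and 2 lower, against 11.1% and 8.72% of all genes. Within F13a1 cells 2 of 13 were higher and 4 lower, against 19.8% and 17.4%. The libraries also differed in which cells they held, and the part of this in the inhibitor levels was not tested. Cdkn1c, the inhibitor linked to stem cell quiescence, was at 95.8 and 99.2 CPM in Procr and 37.7 and 39.6 CPM in Flt3 cells. It was at most 3.37 CPM in the Elane and F13a1 groups.

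The genes most like the members were found over the 16 combinations of group and library with at least 50 cells, unmarked and Jchain groups included, among 5462 other genes with a mean of at least 20 CPM. The likeness is Pearson's r of log2(CPM + 10), a description over points that share libraries. Closest to the S phase sum were Cenpw (r = 0.98), a kinetochore component that ranged from 3.80 to 199 CPM, Cenph and the clamp loader subunit Rfc5 (both 0.97). Closest to the G2/M sum were Cdca8 (0.98), from 0 to 209 CPM, Incenp (0.97), both of the Aurora B complex, and H2afx (0.97).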

How the data were processed

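The authors deposited UMI counts per gene and cell for 4 libraries, 1 per gate and label, as whole numbers. Per the submitters' processing notes, Cell Ranger and Seurat were used with the mm10 build, and no versions are named there. Barcodes were kept from 200 detected genes up if mitochondrial transcripts made up less than 10% (3567 of 3641). Cells were thinned to 2000 UMIs without replacement (seed 1). No doublet caller was run, and cells with transcripts of 2 lineages (2 cells) or with both Xist and Y-linked UMIs (libraries mixed sexes) were left out as alternatives. CPM values are summed UMIs of all kept or grouped cells per 1000000 UMIs. Ratios carry the exact conditional 95% interval, shares the Clopper-Pearson interval, differences of shares a Newcombe interval from those bounds, and log2 ratios had 0.5 UMIs added. Genes with at least 20 UMIs over both sides were measured, and 1.5-fold was the call. No test between groups was possible with 1 library each, as each group has no replicate. The members, marker groups and gene lists were chosen with earlier results of these data known. Full values were given for the 5 members per list with most UMIs, Mki67, Top2a, Pcna and Mcm5, and for up to 5 members per list and direction in a comparison. The scripts were tested on simulated data. Python 3.11.15, numpy 2.4.6, scipy 1.17.1, pandas 2.3.3 and matplotlib 3.10.9 were used.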

Additional observations from a re-analysis of the deposited data

Results flagged for a closer look

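The labels went opposite ways in the 2 gates for 8 of the 42 values looked at (the 40 members and both sums), with each gate's counting interval on its own side of 1. The difference between the gates was not tested, since each rests on 1 library per label. The S phase sum was 1.45 times the control in the sinusoidal library labelled knockout and 0.932 times in the type H one. Among S phase members the same ratios were 1.55 and 0.791 for Mcm6, 1.55 and 0.802 for Tyms and 1.31 and 0.815 for Rrm1. Among G2/M members they were 1.52 and 0.784 for Cdk1, 1.43 and 0.817 for Ccnb1, 1.59 and 0.751 for Aurka and 1.42 and 0.623 for Plk1. With 1 library per group, no library could be compared with others of its group.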

How the results depend on the processing

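No paired analysis was possible because each gate and label has 1 library and no result comes from a test. Of 152 alternative values of the main results 121 stayed within their counting interval (counts of members within 1.5 times), and 31 moved further, and of 49 values for single groups 2 moved. The sign changed in 12 alternatives, all for label differences of shares whose intervals held 0. The Elane difference, -0.247 points, was 0.45 to 3.81 in 6 of them. The Flt3 difference, -7.45, was 0.439 with 1 other thinning seed, while another seed gave -15.7 (-31.8 to -0.309) without a change of sign. The Procr one, -3.63, was 0.562 with higher minimums, and that of unmarked type H cells, 0.279, was -2.75 to -1.18 in 4. The log2 label ratio of the G2/M sum in the type H gate, 0.01, was 0.16 over thinned cells and 0.065 with the control's group shares given to both libraries. In the sinusoidal gate that of the S phase sum, 0.54, was 0.98 over thinned cells, 0.59 as the median of the members and 0.69 with the control's group shares, and that of the G2/M sum, 0.67, was 1.17 and 1.45 over thinned cells and with those shares. Shares past the minimum (type H control, type H labelled knockout, sinusoidal control, sinusoidal labelled knockout) were 9.18%, 10.5%, 26.2% and 61.7% at 1000 UMIs and 32.9%, 33.7%, 55.7% and 89.9% at 4000 UMIs. They were 55.3%, 46.1%, 55.8% and 91.1% without thinning and 38.5%, 40.8%, 55.8% and 87.7% with lower minimums. Higher minimums gave 9.49% and 10.3% in the type H libraries and 72.5% in the sinusoidal library labelled knockout. Members past the fold in the type H gate, 1 higher and 1 lower, were 0 and 0 at a ratio of 2, with 3 higher over thinned cells. In the sinusoidal gate the 22 higher members were 0 at a ratio of 2 and 37 over thinned cells. The causes of these shifts were not tested. Flt3 and F13a1 groups with doubled marker minimums and the Lyz2 group with minimums halved had under 25 cells and were not run. Scaling by the median gene and leaving out globin-rich cells were chosen after the data were seen. Thinning to 2000 UMIs limits what can be read from single members per cell.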
